A study of Mus musculus with 28 samples.

Results

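The 10 genes described here encode the machinery that displays peptides on MHC class I molecules at the cell surface: B2m, H2-K1, H2-D1, Tap1, Tap2, Tapbp, Psmb8, Psmb9, Psmb10 and Nlrc5. They were taken by name, as parts of this pathway, and the rule sets no threshold on their values. They are 10 of 35858 gene symbols in the transcript files of liver and pancreas (set 2) and 10 of 24845 gene rows in the table of liver and lung (set 1). Every member passed the low-count filter in set 2, and 9 of 10 passed the low-value filter in set 1, where B2m is listed at 0 in every sample.

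Expression was measured by RNA sequencing of mouse tissues in which human APOBEC3B (A3B), a cytosine deaminase, was switched on with doxycycline. The A3B mice carried the human A3B cDNA fused to turboGFP behind a tetO operator in the Col1a1 locus, together with the constitutive CAGs-rtTA3 driver, which is active across adult tissues and not in 1 cell type. Animals were 4 weeks old at the start and ate pellets with 625 ppm doxycycline. Set 2 held 6 A3B and 2 control livers and 6 A3B and 2 control pancreases, all labelled 10 days. From the numbers in their titles, livers and pancreases 44, 49, 125, 137, 153, 45 and 168 were taken to come from the same 7 mice. Set 1 held 3 A3B and 3 control livers and 3 A3B and 3 control lungs. Its controls are labelled 15 days, A3B livers 23 and 28 are labelled 14 days, and A3B liver 70 and the 3 A3B lungs are labelled 10 days, so time differed between the groups of set 1. Controls had the A3B transgene or the driver alone and, by the study's methods, also ate doxycycline pellets, whereas a legend of the study describes the controls of liver and pancreas as untreated.

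Several genotype labels conflict with the titles. A3B pancreases 44 and 137 are labelled with the transgene alone, and control pancreases 45 and 168 and control liver 11 are labelled with transgene and driver, and their groups were taken from the titles. In set 1 the human A3B transcript, which has a row of its own, was at 705 to 1710 TPM (a transcript level scaled for length and library) in A3B livers against 0.0928 to 0.144 in controls, and at 90.6 to 281 TPM in A3B lungs against 0.435 to 0.526, so control liver 11 had the transcript level of the other controls. The human transcript was not analysed in set 2. Total estimated counts ranged from 65161064 to 118976013 per sample in set 2, and the depth of set 1 is unknown. Tissue markers fit the labels: the summed TPM of 7 acinar genes was at least 57500 in every pancreas and at most 513 in the livers of set 2, and the summed TPM of 6 lung epithelial genes was at least 18200 in every lung and at most 47.6 in the livers of set 1. In control pancreases 45 and 168 the 10 most abundant genes took up 62.2% and 59.5% of all counts, against 12.04% to 20.4% in A3B pancreases. TPM in a control pancreas is therefore scaled down for genes outside that group. TPM is used below to show samples, while fold changes come from TMM-scaled counts. TMM adjusts for such composition on the assumption that most genes do not change, which was not tested.

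MHC class I molecules are built from a heavy chain, here H2-K1 or H2-D1, and the light chain B2m. Peptides are cut in the cytosol by the proteasome, carried into the endoplasmic reticulum by the transporter formed by Tap1 and Tap2, and loaded with the help of tapasin (Tapbp). In cells exposed to interferon, the catalytic subunits Psmb8, Psmb9 and Psmb10 take the places of Psmb5, Psmb6 and Psmb7 and form the immunoproteasome. Nlrc5 is the transactivator that acts on class I promoters, as CIITA does on class II. In healthy liver and exocrine pancreas these genes are known to be less active than in lymphoid tissue, and interferon raises them in most cell types.

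Members cluster on chromosome 17 within the MHC region. In GRCm38 with GENCODE M21, Tapbp lies at chr17:33915899-33929292 on the plus strand, H2-K1 at chr17:33996017-34000347 on the minus strand and Psmb9 at chr17:34181987-34187764 on the minus strand. Tap1 follows at chr17:34187553-34197225, Psmb8 at chr17:34197721-34201454, Tap2 at chr17:34203527-34216321 and H2-D1 at chr17:35262730-35267499, all on the plus strand. B2m lies apart at chr2:122147686-122153083 on the plus strand. Chromosome 8 carries Nlrc5 at chr8:94434356-94527272 on the plus strand and Psmb10 at chr8:105935735-105938444 on the minus strand.

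The stretches just before the RefSeq start sites are shown because members that share control elements can be compared in them. RefSeq tables for GRCm38.p6 held 8 of the 10 members, without Tap2 and Nlrc5. All 8 were searched for motifs, and the stretches of Tapbp and Psmb10 are not printed. Each line gives 200 bases before the first transcribed base, 5′ to 3′ on the gene's strand, with motif matches in capitals. For Psmb9 and Tap1, which are transcribed away from each other, the line gives the whole 225 bases between their starts on the plus strand. H2-K1 is shown at the first of its listed starts.
B2m, chr2:122147487-122147686, plus strand: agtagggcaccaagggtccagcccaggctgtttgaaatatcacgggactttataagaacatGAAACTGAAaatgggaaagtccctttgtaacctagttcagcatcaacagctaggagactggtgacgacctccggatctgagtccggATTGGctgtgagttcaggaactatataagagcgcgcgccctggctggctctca
H2-K1, chr17:34000348-34000547, minus strand: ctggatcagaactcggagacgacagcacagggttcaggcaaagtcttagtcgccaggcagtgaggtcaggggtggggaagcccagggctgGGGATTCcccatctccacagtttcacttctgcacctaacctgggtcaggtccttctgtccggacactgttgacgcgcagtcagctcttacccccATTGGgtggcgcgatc
H2-D1, chr17:35262894-35263093, plus strand: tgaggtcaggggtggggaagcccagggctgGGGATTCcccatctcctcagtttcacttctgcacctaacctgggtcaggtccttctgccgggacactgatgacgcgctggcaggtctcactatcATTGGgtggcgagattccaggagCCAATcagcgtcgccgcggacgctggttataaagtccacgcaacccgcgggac
Psmb8, chr17:34197995-34198194, plus strand: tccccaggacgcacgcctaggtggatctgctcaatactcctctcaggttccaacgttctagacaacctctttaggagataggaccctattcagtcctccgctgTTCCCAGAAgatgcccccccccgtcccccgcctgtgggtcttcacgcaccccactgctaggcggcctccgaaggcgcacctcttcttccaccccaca
Psmb9 to Tap1, chr17:34187331-34187555, plus strand: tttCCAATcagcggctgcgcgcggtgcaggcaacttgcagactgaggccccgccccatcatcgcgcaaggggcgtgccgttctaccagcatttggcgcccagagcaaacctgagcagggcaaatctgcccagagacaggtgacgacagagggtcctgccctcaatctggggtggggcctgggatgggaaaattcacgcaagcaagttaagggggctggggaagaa
Motifs were searched on both strands in the 250 bases before each start. The core of the interferon-stimulated response element, GAAANNGAA, was found before B2m and in 7.13% of 32851 such windows. The gamma-activated site TTCNNNGAA was found before Psmb8 and in 7.02% of windows, and the kappa B core GGGATTC before H2-K1 and H2-D1 and in 2.54%. The Y box letters CCAAT, which read ATTGG on the other strand, were found before B2m, Tapbp, H2-K1, Psmb9, Tap1 and H2-D1 and in 33.8% of windows. For Psmb9 and Tap1 this is the same site, in the stretch they share. The letters TGACGTC of the cyclic AMP response element were in none of the 8 member windows and in 2.78% of all. Only exact letters were counted. Variants that share part of a motif's letters, such as tgacg before H2-K1 and H2-D1, were not, so a missing match does not show that a member lacks an element. H2-K1 and H2-D1 share a run of 46 identical bases in the stretches shown. They are related genes, and how the authors' counting split reads between their transcripts was not tested.

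In the pancreas, 7 of the 10 genes were higher in A3B mice than in controls: the light chain B2m, the heavy chains H2-K1 and H2-D1, the transporter genes Tap1 and Tap2, tapasin and the immunoproteasome subunit Psmb8. They were 3.27-fold to 5.19-fold higher by edgeR's quasi-likelihood test, with sizes that depended on which of the 2 controls was used. The third immunoproteasome subunit, Psmb10, was 11.7-fold lower as a sum over its transcripts and higher, at a log2 fold change of 1.63, when only coding transcripts were counted, and Psmb9 and the transactivator Nlrc5 did not pass the test. In bulk tissue such as this, fewer cells of a type and less RNA per cell cannot be told apart. Across all 19123 genes tested, 17.0% were called higher and 14.9% lower at an adjusted p under 0.05. The median log2 fold change of the 10 members was 1.75, against 0.09 over all genes.

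**Figure D1:**
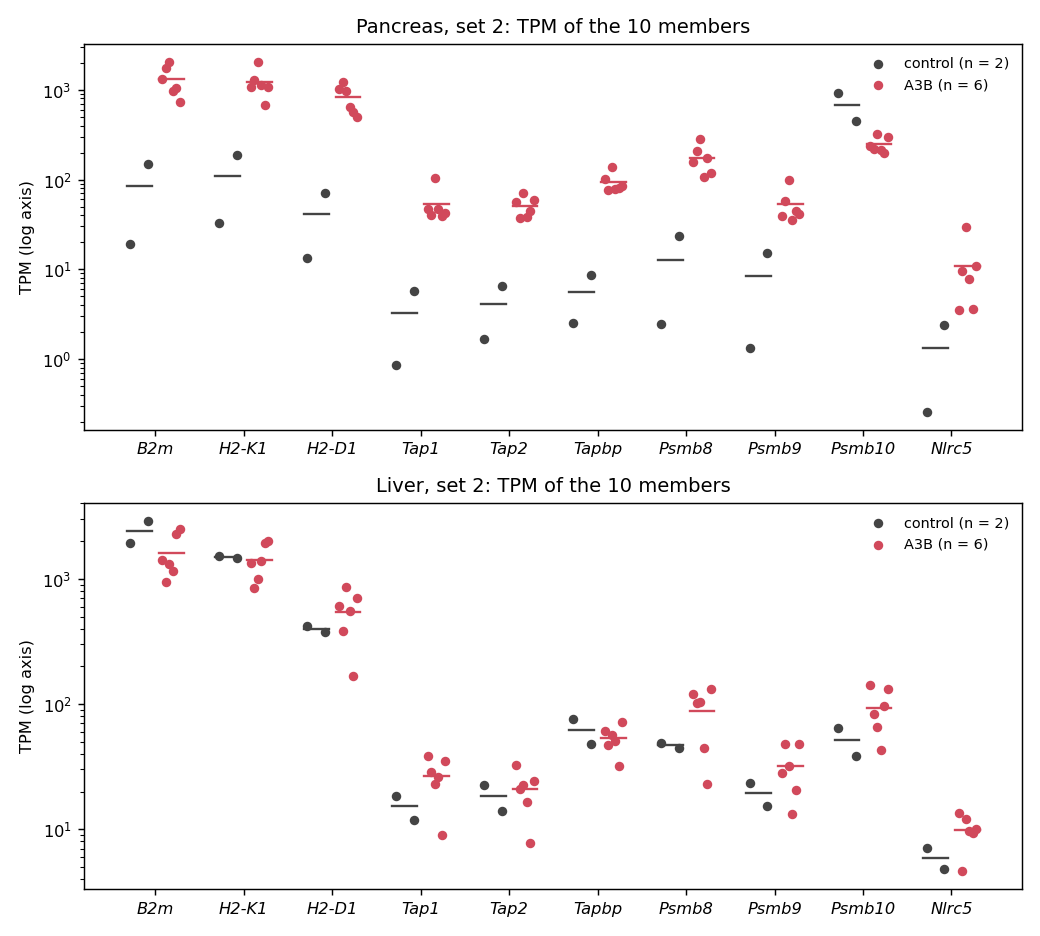
TPM on a log axis of the 10 members in every pancreas (top) and liver (bottom) of set 2, 1 point per sample and a line at each group's mean (A3B n = 6, control n = 2). In the pancreas 9 members lie higher in every A3B sample on this scale, which is not corrected for the acinar share of the controls, and Psmb10 lies lower in every A3B sample, whereas in the liver the groups overlap.

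B2m forms the light chain of every class I molecule. Its level ran from 731 to 2023 TPM in A3B pancreases, with a median of 1181, against 19.1 TPM in control 45 and 148 TPM in control 168. On the TMM-scaled log2 CPM scale the same samples gave 9.06 ± 0.43 (SD, n = 6) against 6.84 ± 1.24 (n = 2), and every A3B pancreas was above both controls. The log2 fold change was 2.03 with a standard error of 0.51 and an adjusted p of 0.0133 in edgeR.

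The 2 classical heavy chains rose with it. H2-K1 ran from 679 to 2067 TPM in A3B pancreases (median 1110) against 33.1 and 186 TPM in controls 45 and 168, and its log2 fold change was 1.71 (SE 0.42, adjusted p 0.0112). H2-D1 ran from 493.2 to 1229 TPM (median 812) against 13.4 and 70.1 TPM, and its log2 fold change was 2.37 (SE 0.49, adjusted p 0.00494), the largest rise among the members in this fit. On the log2 CPM scale H2-D1 was 9.82 ± 0.48 (SD, n = 6) against 7.41 ± 0.78 (n = 2). Neither gene's groups overlapped.

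The peptide transporter and its partner moved by similar amounts. Tap1 ran from 38.9 to 104 TPM in A3B pancreases (median 44.7) against 0.849 and 5.69 TPM in controls 45 and 168, with a log2 fold change of 1.92 (SE 0.47, adjusted p 0.0113). Tap2, the other part of the transporter, ran from 37.5 to 71.1 TPM (median 50.8) against 1.67 and 6.56 TPM, with a log2 fold change of 1.77 (SE 0.31, adjusted p 0.00234). Tapasin, which holds the heavy chain at the transporter, ran from 76.7 to 138 TPM (median 82.2) against 2.54 and 8.63 TPM, with a log2 fold change of 1.89 (SE 0.28, adjusted p 0.000926). Groups did not overlap for these 3 genes, and Tapbp had the smallest standard error of the members. Between 74.6% and 100% of the Tap2 signal of a sample lay in transcripts annotated as not coding, of which a retained intron form, Tap2-202, was at 26.2 to 54.2 TPM in A3B pancreases against 1.59 and 4.90 TPM. The coding Tap2-201 was at 5.90 to 12.5 TPM in A3B pancreases, 0 in 1 control and 0.422 TPM in the other.

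Of the immunoproteasome subunits, Psmb8 replaces Psmb5 and carries the chymotrypsin-like activity. It ran from 108 to 284 TPM in A3B pancreases (median 164) against 2.48 and 23.2 TPM in controls 45 and 168, with a log2 fold change of 1.72 (SE 0.48, adjusted p 0.0202) and no overlap. Psmb9, which replaces Psmb6, ran from 35.3 to 99.4 TPM (median 42.9) against 1.31 and 15.3 TPM. On the TMM scale Psmb9 in control 168, at 4.93 log2 CPM, lay inside the A3B range of 4.24 to 5.68, and the log2 fold change of 0.75 (SE 0.54, adjusted p 0.314) did not pass. The constitutive partners did not pass either, at log2 fold changes of 0.57 for Psmb5, 0.20 for Psmb6 and 0.27 for Psmb7 (adjusted p 0.203, 0.577 and 0.462).

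Nlrc5 was the least abundant member. It ran from 3.48 to 29.5 TPM in A3B pancreases (median 8.76) against 0.255 and 2.36 TPM in controls 45 and 168. On the log2 CPM scale the controls were far apart, at 0.69 and 3.90, and control 168 lay inside the A3B range of 3.23 to 5.81. The log2 fold change was 1.46 with a standard error of 0.92 and an adjusted p of 0.256.

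The 2 control pancreases differed from each other, with an SD of 1.24 for B2m on the log2 CPM scale, and the calls depended on which control was used. Without control 45, which had the lower levels, 3 members were called higher (H2-D1, Tap2 and Tapbp), and without control 168 all 9 members other than Psmb10 were. Of all genes tested 10.2% were higher without control 45 and 15.5% without control 168, against 17.0% with both. The log2 fold changes without control 45 and without control 168 were 1.42 and 3.16 for B2m, 1.24 and 2.46 for H2-K1, 1.34 and 3.01 for Tap1, and 1.08 and 2.99 for Psmb8. Without A3B pancreases 44 and 137, whose genotype labels conflict, 6 were called higher, and Psmb8 had nearly the same log2 fold change, 1.69, at an adjusted p of 0.0706, where 11.9% of genes were higher. All 7 members were above both controls in every A3B pancreas on the TMM scale, where 25.1% of all genes had every A3B sample above every control and 18.9% had every one below.

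Psmb10, which replaces Psmb7, went the other way as a gene sum. It was at 924 and 446 TPM in control pancreases 45 and 168 and at 197 to 323 TPM in A3B pancreases (median 230), with no overlap. On the log2 CPM scale it was 6.34 ± 0.19 (SD, n = 6) in A3B pancreases against 9.50 ± 1.59 (n = 2) in controls, and the log2 fold change was −3.55 (SE 0.41, adjusted p 0.000315). Without control 45 it was −2.01 and without control 168 −4.26. The sum does not describe the coding transcript. Psmb10-201, the full-length coding transcript, was at 1.38 and 6.90 TPM in controls 45 and 168 and at 29.6 to 77.7 TPM (median 54.5) in A3B pancreases. With coding transcripts alone, Psmb10 was higher in A3B mice, with a log2 fold change of 1.63 and an adjusted p of 0.00939, and 8 members were then called higher and none lower.

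The control signal of Psmb10 lay in 3 short noncoding forms that end near the 3′ end of the gene. Psmb10-205, a retained intron form at chr8:105935736-105937038, was at 506 and 200 TPM in controls 45 and 168 and at 59.6 to 112 TPM in A3B pancreases. Psmb10-203, a processed transcript at chr8:105935735-105937025, was at 307 and 179 TPM in the controls and at 49.8 to 114 TPM in A3B pancreases. Psmb10-207, another retained intron form at chr8:105935744-105937027, was at 109 and 58.1 TPM against 27.4 to 46.5 TPM. All 3 were higher in both controls than in any A3B pancreas. Noncoding forms made up 99.9% and 98.5% of the Psmb10 signal in control pancreases 45 and 168 and 72.1% to 88.1% in A3B pancreases. In control livers 45 and 168, from the same mice, they made up 35.0% and 36.5%.

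**Figure D2:**
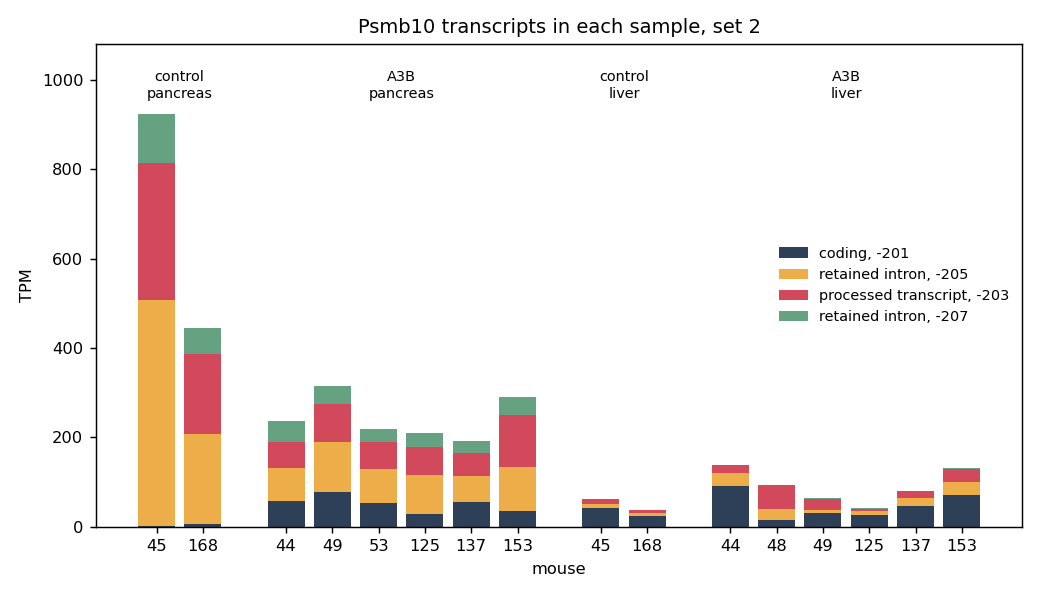
Stacked TPM of the 4 main Psmb10 transcripts in each pancreas and liver of set 2, 1 bar per mouse. In control pancreases nearly the whole bar is made of the 3 noncoding forms, and the coding Psmb10-201 at 1.38 and 6.90 TPM can hardly be seen.

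The neighbourhood of Psmb10 was examined after these values were seen. Ctrl, which encodes chymotrypsin-like protease, a secreted acinar enzyme, lies on the same strand 1872 bases beyond the end of Psmb10. It was at 11600 and 9123 TPM in control pancreases 45 and 168, at 2601 to 10290 TPM in A3B pancreases (median 4746) and at most 20.2 TPM in the livers of set 2. The 3 short forms begin 3163 to 3176 bases before the start of Ctrl, and the antisense gene Gm16156 at chr8:105934333-105945843 on the plus strand overlaps all of Psmb10. The part of reads from Ctrl in the Psmb10 forms was not tested. The strand setting of the authors' counting is not given in the sources used here, and without it reads of Psmb10 and Gm16156 cannot be told apart.

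Genes around the 10 members were read from lists by role. Of 17 interferon-induced genes, 11 were higher in A3B pancreases and none lower, with a median log2 fold change of 2.65. Usp18, which removes ISG15 from proteins, ran from 112 to 232 TPM in A3B pancreases against 0.669 and 1.12 TPM, a log2 fold change of 5.33. Irf7, a transcription factor of the type I interferon response, ran from 145 to 420 TPM against 1.59 and 3.08 TPM, a log2 fold change of 4.53. Oasl1, of the oligoadenylate synthetase family, ran from 27.1 to 45.7 TPM against 0.381 and 1.36 TPM, a log2 fold change of 3.69. Among the interferons themselves, Ifnb1 and Ifnk were called higher but are listed at 0 in both control pancreases and reach only 0.595 and 0.437 TPM in A3B pancreases, and DESeq2 called 1 of them.

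Of 23 transcription factors and signalling genes of the class I pathway, 12 were higher and 1 lower in A3B pancreases, with a median log2 fold change of 0.96. The leading members by p were Irf9, a transcription factor of the type I interferon response (log2 fold change 1.59), Irf2 (1.42) and the NF-kappa B subunit Rela (1.46). Rfxank, a subunit of the complex that binds the X box of MHC promoters, was lower, at −0.72. Of 5 proteasome activator and assembly genes, 2 were higher: Psme1, a subunit of the interferon-inducible PA28 cap, at a log2 fold change of 1.64, and Psme3, the PA28 gamma cap, at 0.80. The immunoproteasome assembly factor Pomp did not pass.

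Of 9 peptide loading and trimming genes, 3 were higher and none lower: the aminopeptidases Npepps (log2 fold change 1.02) and Erap1 (0.83) and the tapasin relative Tapbpl (1.18). Of 11 other class I heavy chains, H2-Q4 (1.57) and H2-T23 (1.33) were higher and H2-Q2 lower, at −0.95. Of 5 class I-like genes, the neonatal Fc receptor Fcgrt (2.13) and the iron regulator Hfe (1.70) were higher and Cd1d1, which presents lipids, was lower at −1.46. Of 7 MHC class II genes none passed with edgeR, none had an unadjusted p under 0.05 and DESeq2 called 0. Over all 19123 genes, 8312 had an unadjusted p under 0.05 in edgeR, and DESeq2 called 36.9%.

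Markers of some other cell types also differed in the pancreas. Their summed TPM is not corrected for the acinar share of the controls, while the calls come from TMM-scaled counts. The summed TPM of 8 macrophage genes ran from 1940 to 5690 in A3B pancreases against 48.7 and 557 in controls 45 and 168, and 6 of the 8 were called higher, the defining Adgre1 among them at a log2 fold change of 3.13. The summed TPM of 4 fibroblast genes ran from 832 to 1270 against 35.6 and 160, with 3 called higher, and that of 5 general leukocyte genes from 226 to 822 against 3.57 and 154, with 1 called higher. The defining leukocyte gene Ptprc, at 8.64 to 34.1 TPM against 0.109 and 10.4 TPM, was not called. None of 8 T cell genes, 6 B and plasma cell genes or 5 dendritic cell genes passed, and the summed T cell level ran from 11.6 to 115 TPM against 0.48 and 43.0 TPM. The summed TPM of 6 NK cell genes ran from 20.2 to 60.5 against 0.632 and 13.1, with 1 called higher, the cytotoxic granule gene Gzmb, at 2.36. Of 5 neutrophil genes 2 were higher and 1 lower, and their summed TPM ran from 12.4 to 135 against 6.98 and 43.0. The summed TPM of 4 ductal genes ran from 331 to 740 against 59.7 and 81.2, with 2 higher, and that of 4 endothelial genes from 52.9 to 84.8 against 7.08 and 16.2, with 1 higher. Of 7 acinar genes 6 were lower, with Cpa1 at −2.63, and their summed TPM ran from 57500 to 157000 against 246000 and 262000. Of 4 endocrine genes Ins1 was lower (−1.79) and 3 had an unadjusted p under 0.05, with a median log2 fold change of −1.39, while their summed TPM ran from 3350 to 12500 against 3130 and 3160. Of these lists no gene is at 0 in every pancreas. The part of these cells in the class I levels was not tested.

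In the livers of set 2 none of the 10 genes passed the test. Background calls were also few: 1.26% of 17365 genes tested were higher and 2.41% lower in A3B livers. Tapbp, at a log2 fold change of −0.69 (SE 0.26, adjusted p 0.163), was the 1 member with an unadjusted p under 0.05 in edgeR, and DESeq2 called 0. Over all 17365 genes, 3985 had an unadjusted p under 0.05 in edgeR, and DESeq2 called 13.8%. No member had all A3B livers above or below both controls, where 15.0% of all genes had all above and 12.8% all below. The median log2 fold change of the members was 0.03, against 0.21 over all genes.

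The structural genes were abundant in liver. B2m ran from 949 to 2480 TPM in A3B livers (median 1364) against 1919 and 2909 TPM in controls 45 and 168, with a log2 fold change of −0.94 (SE 0.50, adjusted p 0.292). H2-K1 ran from 841 to 2014 TPM (median 1370) against 1524 and 1477 TPM, with a log2 fold change of −0.82 (SE 0.44, adjusted p 0.290). H2-D1 ran from 166 to 864 TPM (median 579) against 420 and 379 TPM, a log2 fold change of 0.02 (SE 0.49, adjusted p 0.988). Control livers thus held B2m at 1919 and 2909 TPM where the pancreases of the same 2 mice held 19.1 and 148 TPM, on the uncorrected scale.

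Tap1 ran from 8.95 to 38.2 TPM in A3B livers (median 27.5) against 18.5 and 11.96 TPM in controls 45 and 168 (log2 fold change 0.37, SE 0.38). Tap2 ran from 7.73 to 32.6 TPM (median 21.9) against 22.6 and 14.1 TPM (−0.26, SE 0.34), and Tapbp from 32.0 to 71.2 TPM (median 53.5) against 76.4 and 47.7 TPM. Psmb8 ran from 23.1 to 132 TPM (median 103) against 49.0 and 44.5 TPM (0.52, SE 0.46). The A3B range of each of these 4 genes spanned at least 1 of the controls. Psmb9 ran from 13.2 to 48.3 TPM (median 30.1) against 23.4 and 15.4 TPM (0.16, SE 0.51), and Psmb10 from 43.1 to 141 TPM (median 89.4) against 64.2 and 38.7 TPM (0.26, SE 0.39). Nlrc5 ran from 4.61 to 13.4 TPM (median 9.80) against 7.08 and 4.79 TPM (0.05, SE 0.33). Adjusted p-values of these genes other than Tapbp were between 0.533 and 0.946.

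A3B liver 48 stood apart from the other A3B livers. Its H2-K1 level of 1943 TPM was for 76.5% noncoding, and the retained intron form H2-K1-215 alone held 1450 TPM. Noncoding forms also made up 85.2% of Psmb8, 84.1% of Psmb10 and 75.1% of Nlrc5 there, against 34.7% to 53.4% of Psmb10 in the other A3B livers. In TPM it had the lowest H2-D1, Tap1, Tap2, Tapbp and Psmb8 of the A3B livers, although on the TMM scale Tapbp was lowest in A3B liver 137, and it had the lowest summed macrophage level, 46.1 TPM in a range that reached 1250 TPM. Without it no member was called in liver either.

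Of 11 other class I heavy chains 1 was called in these livers, and of 5 class I-like genes none. H2-Q10, a secreted class I heavy chain made by hepatocytes, ran from 149 to 348 TPM in A3B livers against 1920 and 2260 TPM, a log2 fold change of −3.17 (SE 0.44, adjusted p 0.00851). Summed TPM of 6 hepatocyte genes moved with it, at 37800 to 93000 in A3B livers against 98900 and 153000 in controls, and Alb was at −1.70 (adjusted p 0.0938). None of the 6 passed in edgeR, 3 had an unadjusted p under 0.05 and 3 were called by DESeq2. The part of hepatocyte RNA in the H2-Q10 level was not tested. Of the 5 class I-like genes 4 had every A3B liver below both controls, 2 had an unadjusted p under 0.05 and 2 were called by DESeq2, with a median log2 fold change of −0.89. Of 5 proteasome activator and assembly genes Pomp (−1.83) and the PA200 cap Psme4 (−1.23) were lower. Of 17 interferon-induced genes Usp18 (3.34) and Ifit1 (2.18), which binds foreign RNA ends, were higher and none lower. Among the 17, 8 had an unadjusted p under 0.05 and 5 were called by DESeq2. Of 23 class I transcription factors and signalling genes Atf1 (1.18) was higher and none lower. None of 9 peptide loading genes passed, with 2 at an unadjusted p under 0.05 and 1 called by DESeq2, and none of 7 MHC class II genes passed, with 4 at an unadjusted p under 0.05 and 2 called by DESeq2. Summed leukocyte markers ran from 11.5 to 231 TPM against 37.3 and 43.8 TPM, and no gene of that list or of 8 macrophage genes was called. None of 5 neutrophil genes passed in edgeR, 3 had an unadjusted p under 0.05 and 2 were called by DESeq2. Their median log2 fold change was 3.02, and their summed TPM ran from 5.67 to 102 against 3.65 and 5.14.

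The difference between the A3B effects of pancreas and liver was itself tested over the 16 samples of set 2. It passed for 6 of 10 members, 5 with a more positive and 1 with a more negative effect in pancreas, against 11.9% of 19908 genes in either direction. B2m differed by 3.13 on the log2 scale (SE 0.80, adjusted p 0.0211), H2-K1 by 2.69 (SE 0.66, adjusted p 0.0182) and H2-D1 by 2.53 (SE 0.72, adjusted p 0.0329). Tapbp differed by 2.74 (SE 0.38, adjusted p 0.0012), Tap2 by 2.20 (SE 0.48, adjusted p 0.0102) and the Psmb10 sum by −3.62 (SE 0.67, adjusted p 0.00541). Tap1, at 1.71 (adjusted p 0.0755), Psmb8, at 1.36 (0.198), Nlrc5, at 1.57 (0.285), and Psmb9, at 0.75 (0.558), did not pass.

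**Figure D3:**
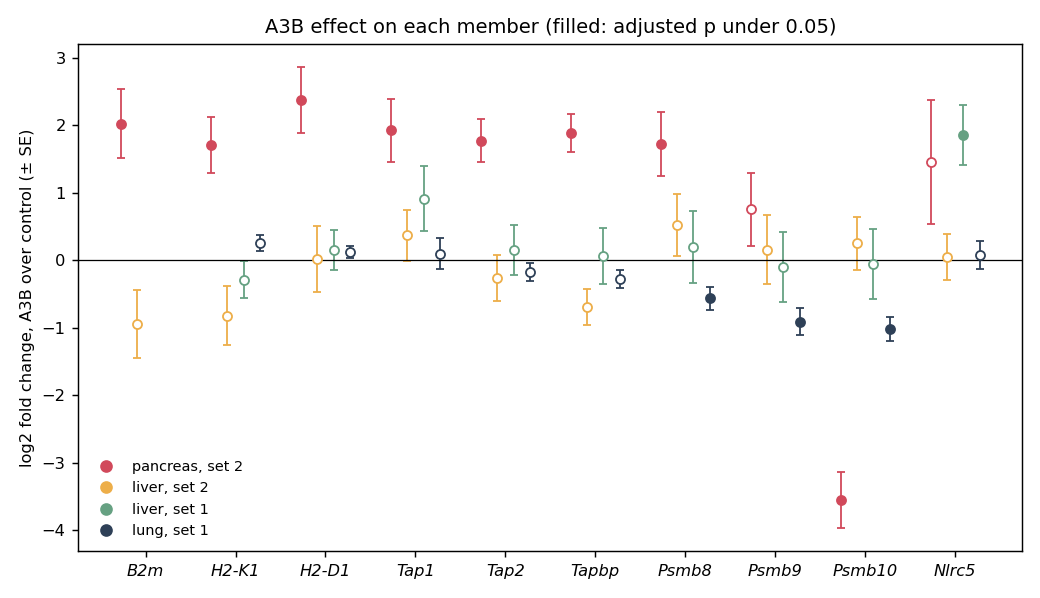
A3B against control log2 fold change with its standard error for each member in pancreas and liver of set 2 (edgeR) and in liver and lung of set 1 (limma on log2(TPM + 1)), filled where the adjusted p is under 0.05. In pancreas 7 filled points lie above 0 and in the liver of set 1 only that of Nlrc5 does, and the 3 immunoproteasome subunits lie below 0 in lung.

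With the mouse as a block, over the 7 mice that gave both tissues, 4 members passed, where 7.99% of 19611 genes did: B2m (3.49, adjusted p 0.0325), Tap2 (2.11, 0.0144), Tapbp (2.75, 0.0138) and the Psmb10 sum (−3.23, 0.0191). H2-K1 (2.83, 0.0615) and H2-D1 (2.29, 0.083) did not pass under the block, and 6 members passed in the same mice without it, where 11.7% of genes did. With coding transcripts alone the Psmb10 difference was 1.71 (adjusted p 0.0988) and Tap1 passed at 2.42 (adjusted p 0.0164). The count of 6 fell to 3 without control liver 45 or control liver 168 and to 2 (Tapbp and Psmb10) without control pancreas 45, and it rose to 9 without control pancreas 168. Calls over all genes fell as well, from 11.9% to 2.6% and 3.31% without control livers 45 and 168, 3.39% without control pancreas 45 and 8.82% without control pancreas 168.

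Liver was also measured in set 1, with levels that come from another counting method and are not set against those of set 2. Nlrc5 was the 1 member called. It was at 40.9, 78.6 and 40.2 TPM in A3B livers 23, 28 and 70 and at 22.8, 8.73 and 11.5 TPM in control livers 11, 91 and 92, with no overlap. The log2 fold change on the log2(TPM + 1) scale was 1.86 (SE 0.44, adjusted p 0.0475 by limma), or 3.62-fold. Of 11507 genes tested 6.07% were higher and 1.86% lower, which turned to 2.36% and 3.98% with samples centred on their median. The call did not survive leaving out control 91 or 92 or any single A3B liver, with adjusted p between 0.0513 and 0.209 and log2 fold changes between 1.54 and 2.02. Nor did it hold when samples were centred on their median (1.40, adjusted p 0.0662) or when low genes were kept (adjusted p 0.1). Calls over all genes went from 7.93% to 0.00862% without control 91, 0.0775% without control 92, 0.476% without A3B liver 23 and 0.282% with low genes kept. They were at 7.73% without A3B liver 28, 11.6% without A3B liver 70 and 6.34% with centred samples.

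The other 8 members tested did not pass, and the median log2 fold change of the 9 was 0.15 against 0.39 over all genes. H2-K1 was at 1469, 1522 and 1659 TPM in A3B livers 23, 28 and 70 and at 1719, 1778 and 2198 TPM in control livers 11, 91 and 92, so that every A3B liver was below every control, at a log2 fold change of −0.29 (SE 0.27, adjusted p 0.482). H2-K1 and Nlrc5 were the 2 of 9 members whose groups did not overlap, where 10.3% of all genes had every A3B liver below and 28.5% above every control. H2-D1 was at 436, 554 and 355 TPM against 359, 408 and 427 TPM. Tap1 was at 25.0, 89.0 and 36.4 TPM against 27.0, 20.0 and 21.3 TPM, a log2 fold change of 0.91 (SE 0.48, adjusted p 0.221). Liver 28 was the highest A3B liver for H2-D1, Tap1, Tap2, Tapbp, Psmb8, Psmb9 and Nlrc5.

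Tap2 was at 43.5, 95.4 and 51.5 TPM in A3B livers 23, 28 and 70 against 49.5, 47.8 and 65.1 TPM in controls 11, 91 and 92, and Tapbp at 116, 297 and 150 TPM against 136, 160.0 and 205 TPM. Psmb8 was at 50.7, 204 and 102 TPM against 58.7, 106 and 113 TPM. Psmb9 was at 9.19, 37.5 and 27.0 TPM against 16.8, 24.7 and 28.3 TPM, and Psmb10 at 78.3, 188 and 215 TPM against 86.2, 184 and 222 TPM. The groups overlapped for these 5 genes, and their log2 fold changes lay between −0.10 and 0.20. B2m, H2-T23, H2-Q6 and H2-Q7 are listed at 0 in all 12 samples of set 1, although B2m is expressed by nearly all cells.

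**Figure D4:**
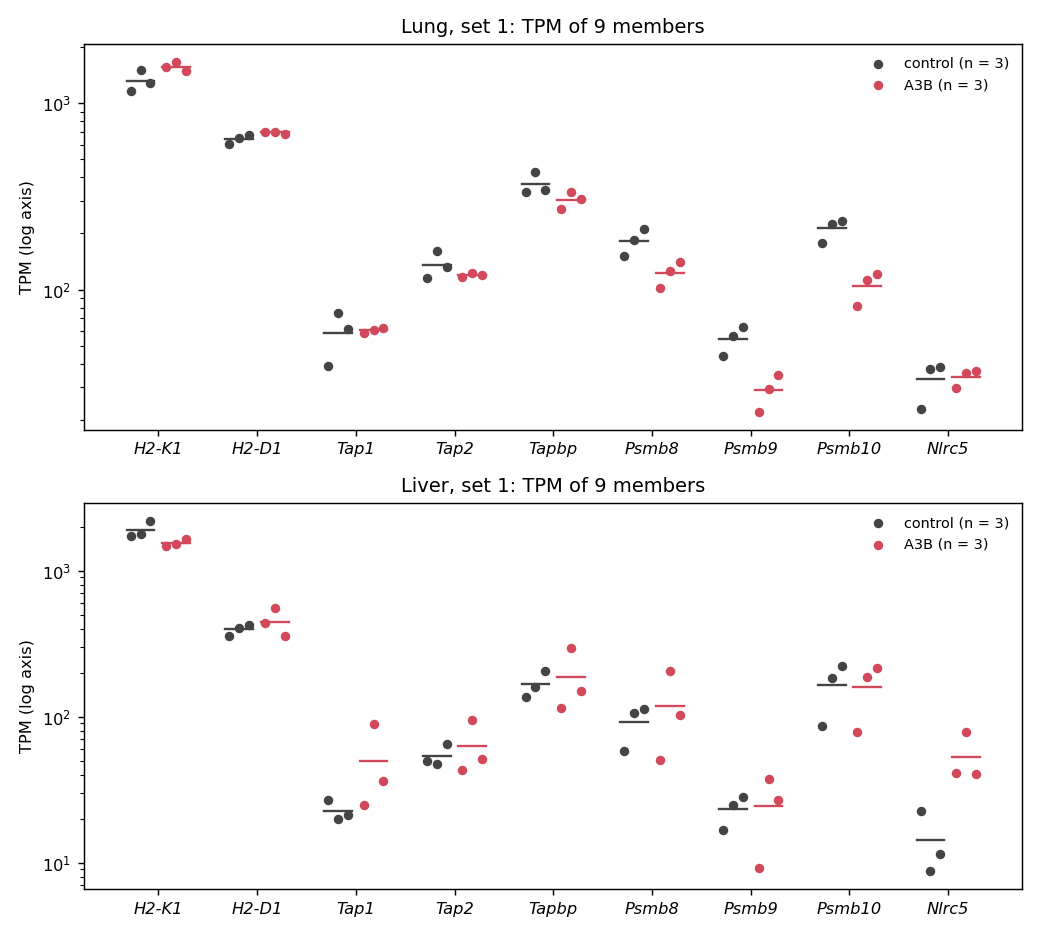
TPM on a log axis of the 9 members with values above 0 in every lung (top) and liver (bottom) of set 1, 1 point per sample and a line at each group's mean (n = 3 per group). In lung all A3B points of Psmb8, Psmb9 and Psmb10 lie below all control points, and in liver all A3B points of Nlrc5 lie above.

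In the other lists of set 1 liver, H2-Q10 was again lower, at 456 to 677 TPM in A3B livers against 2850 to 3490 TPM in controls (log2 fold change −2.45, adjusted p 0.0130), the 1 called of 5 other heavy chains tested. Summed TPM of 6 hepatocyte genes ran from 2330 to 4460 in these A3B livers against 3930 to 5440 in controls. Usp18 (4.29) and Ifit1 (3.03) were the 2 higher of 15 interferon-induced genes, and Atf1 (1.82) and Stat3 (1.36) the 2 higher of 23 transcription factors and signalling genes. With samples centred on their median only Usp18 of the 15 and 0 of the 23 were called. None of 5 class I-like genes passed in limma, 3 had an unadjusted p under 0.05, and all 5 had every A3B liver below every control. Of 7 MHC class II genes none passed, 6 had an unadjusted p under 0.05, and 5 had every A3B liver below every control. Over all 11507 genes, 3755 had an unadjusted p under 0.05, and 10.3% had every A3B liver below every control. Summed macrophage markers ran from 395 to 1250 TPM in A3B livers and from 739 to 873 TPM in controls, and the B cell gene Ms4a1 is listed at 0 in all livers and lungs of set 1. Summed dendritic cell markers ran from 11.3 to 22.4 TPM against 3.45 to 8.89 TPM, and Zbtb46, the 1 gene of that list tested, was not called. Elsewhere in the cell lists the lung epithelial gene Sftpa1 (3.36) was called higher and the acinar gene Cela1 (−3.33) lower, Cela1 also with centred samples. The part of such cells in the Nlrc5 level was not tested.

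Over the livers of both sets, 9 A3B and 5 control, with the set as a term, Nlrc5 was the 1 of 9 members called, at a log2 fold change of 1.23 (SE 0.32, adjusted p 0.00735 by limma on TPM). It was called under each alternative tried for this comparison, with adjusted p between 0.00311 and 0.0432. In these livers 30.6% of 10148 genes were higher and 8.42% lower, and the balance turned to 13.9% higher and 18.2% lower with samples centred on their median. Tap1, at 0.80 (SE 0.34, adjusted p 0.0743), passed without A3B liver 23 (0.96, adjusted p 0.0444) and without A3B liver 48 (0.93, adjusted p 0.012), where 34.8% and 46.2% of genes were called against 39.0% with all livers. In the same fit 6 of 15 interferon-induced genes were higher and none lower, with Usp18 at 3.93, Ifit1 at 2.71 and Isg15 at 2.55. With centred samples these 3 were among 5 called higher, and 1 was lower. Of 23 class I transcription factors and signalling genes 9 were higher, with Atf1 (1.60) and the interferon gamma receptor chains Ifngr1 (1.10) and Ifngr2 (0.89) at the smallest p, and 1 was lower. With centred samples 2 of the 23 were higher and 2 lower. By contrast 4 of 6 MHC class II genes tested were lower, among them the beta chain genes H2-Eb1 (log2 fold change −2.22) and H2-Ab1 (−2.11) and the invariant chain Cd74 (−2.16), and 5 were lower with centred samples. Of 5 class I-like genes Cd1d1 (−0.89) and Mr1 (−0.76) were lower, and all 5 were with centred samples, and of 5 other heavy chains H2-Q4 (1.07) was higher and H2-Q10 (−2.74) and H2-Q1 (−1.30) lower. Of 6 hepatocyte genes 1 was higher and 2 were lower in this fit (0 and 4 with centred samples), and their part in the H2-Q10 difference was not tested. In other cell lists the neutrophil genes S100a8 (2.08) and S100a9 (2.17), the dendritic cell gene Zbtb46 (1.12) and the lung epithelial gene Sftpa1 (3.09) were called higher, and the fibroblast gene Col3a1 (−1.61) and the acinar gene Cela1 (−2.88) lower. Of these, Sftpa1, Col3a1 and Cela1 were also called with centred samples, and the part of such cells in the Nlrc5 level was not tested. Tested on counts in set 2 alone, Nlrc5 had the log2 fold change of 0.05 given above (adjusted p 0.946).

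In lung, where the human transcript was lower than in liver, the immunoproteasome subunits moved down. Psmb8, Psmb9 and Psmb10 were lower in A3B lungs, by 1.48-fold, 1.88-fold and 2.03-fold on the log2(TPM + 1) scale, and the heavy chains, the transporter, tapasin and Nlrc5 did not pass. Of 13651 genes tested 16.1% were higher and 20.8% lower. The median log2 fold change of the 9 members was −0.17, against −0.06 over all genes.

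Psmb10 was at 81.8, 112 and 122 TPM in A3B lungs 69, 70 and 74 and at 179, 225 and 234 TPM in control lungs 87, 88 and 91. Its log2 fold change was −1.02 (SE 0.18, adjusted p 0.00818 by limma). Psmb9 was at 22.01, 29.5 and 34.9 TPM against 44.0, 56.2 and 63.3 TPM, with a log2 fold change of −0.91 (SE 0.20, adjusted p 0.0153). Psmb8 was at 102, 126 and 141 TPM against 152, 184 and 211 TPM, with a log2 fold change of −0.56 (SE 0.17, adjusted p 0.0390). All A3B lungs were below all controls for the 3 genes, as for 30.6% of all genes, and H2-D1 was the 1 member with all A3B lungs above, as for 23.3%. Psmb10 passed without any single lung, Psmb9 did not without control 91 (adjusted p 0.0538), and Psmb8 did not without controls 88 or 91 or A3B lungs 69 or 70 (adjusted p 0.0834 to 0.111) nor with low genes kept (0.0661). Calls over all genes ran from 21.9% to 33.7% without single lungs and were at 25.1% with low genes kept, against 36.8% with all 6 lungs and the filter.

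The constitutive partners were split. Psmb5 was at 94.5, 94.9 and 80.6 TPM in A3B lungs 69, 70 and 74 against 116, 117 and 169 TPM in controls 87, 88 and 91 (log2 fold change −0.55, adjusted p 0.0406). Psmb6 was at 16.8, 17.1 and 16.3 TPM against 22.2, 20.4 and 24.2 TPM (−0.39, adjusted p 0.0205). With samples centred on their median Psmb6 was still called lower and Psmb5 was not. Psmb7, the partner of Psmb10, was at 291, 267 and 259 TPM against 276, 295 and 273 TPM (−0.05, adjusted p 0.706) and overlapped.

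H2-K1 was at 1554, 1673 and 1489 TPM in A3B lungs 69, 70 and 74 and at 1164, 1512 and 1290 TPM in controls 87, 88 and 91 (log2 fold change 0.26, SE 0.12, adjusted p 0.141), and it passed without control 88 (0.36, adjusted p 0.0417). H2-D1 was at 703, 704 and 682 TPM against 604, 649 and 672 TPM (0.12, SE 0.09, adjusted p 0.312). Neither heavy chain passed with all 6 lungs. Tap1 was at 58.6, 60.7 and 62.1 TPM against 39.0, 74.7 and 61.5 TPM (0.10, SE 0.23). Tap2 was at 117, 123 and 120 TPM against 116, 161 and 132 TPM (−0.17, SE 0.13), and Tapbp at 270.1, 335 and 305 TPM against 334, 430.0 and 341 TPM (−0.27, SE 0.14). Nlrc5 was at 29.8, 35.9 and 36.5 TPM against 22.9, 37.7 and 38.5 TPM (0.08, SE 0.21).

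The lists around them in lung moved in both directions. Of 5 proteasome activator and assembly genes 3 were lower: the PA28 subunits Psme2 (log2 fold change −0.78) and Psme1 (−0.43) and the assembly factor Pomp (−0.60), while Psme4 was higher (0.36). All 7 MHC class II genes were lower, among them the peptide exchange genes H2-DMb1 (−1.09) and H2-DMa (−0.92) and the transactivator Ciita (−1.74). Of 15 interferon-induced genes 6 were higher and 3 lower, and those with the smallest p were Irf7 (2.28) and Oasl1 (1.56), which were higher, and the guanylate-binding protein gene Gbp5 (−1.25), which was lower. Of 23 transcription factors and signalling genes 5 were higher, among them Ifngr1 (0.52) and Stat3 (0.74), and 3 lower, among them Rfxank (−0.49). Of 9 peptide loading genes Tpp2 (0.46) was higher and Tapbpl (−0.64) and the chaperone Calr (−0.49) lower. H2-Q4 (0.64) was higher and H2-M2 (−1.16) lower among 6 other heavy chains, and Hfe (−0.50) was the 1 lower of 5 class I-like genes.

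Markers of immune and other cells in lung were examined for the same samples. Summed leukocyte markers ran from 2080 to 2620 TPM in A3B lungs and from 1830 to 2630 TPM in controls, and none of the 5 was called. Summed T cell markers ran from 129 to 175 TPM against 172 to 332 TPM, with 1 of 8 genes lower, and summed B and plasma cell markers from 40.5 to 110 TPM against 68.2 to 316 TPM, with none of 5 tested called. Summed macrophage markers ran from 1470 to 1640 TPM against 1610 to 1810 TPM, with Lyz2 the 1 lower of 8. Genes called higher were Gzmb (1.37) of 6 NK cell genes, Mmp8 (1.74) of 5 neutrophil genes and Zbtb46 (0.46) of 4 dendritic cell genes tested. The summed TPM of these lists ran from 124 to 216 against 93.6 to 222, from 148 to 474 against 90.1 to 184, and from 65.2 to 97.8 against 92.2 to 123. Of 6 lung epithelial genes Sftpc was lower (−0.33, adjusted p 0.0236), 3 had every A3B lung below every control, and the summed TPM ran from 18200 to 19800 against 19300 to 20600. Of 4 endothelial genes Kdr was lower (−0.70, adjusted p 0.0433), with a summed TPM of 501 to 706 against 603 to 750. No fibroblast gene of 4 was called, with 1 at an unadjusted p under 0.05, as for 6659 of 13651 genes. The part of these cells in the subunit levels was not tested.

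No member had a different A3B effect in lung than in liver at an adjusted p under 0.05, where 10.7% of 13477 genes did. In all, 2 members had an unadjusted p under 0.05 by limma, as did 4026 of the 13477 genes. They were H2-K1 at a difference of 0.54 (adjusted p 0.144) and Nlrc5 at −1.78 (SE 0.52, adjusted p 0.0521). With the mouse as a block, in which only mice 70 and 91 gave both lung and liver, Nlrc5 passed at −1.89 (adjusted p 0.0196). It also passed without control liver 11 (−2.15, adjusted p 0.0109) and without A3B liver 70 (−1.94, adjusted p 0.0321). Calls over all genes were also more frequent in these 3 fits, at 19.3% with the block, 20.9% without control liver 11 and 22.7% without A3B liver 70. Psmb10, at −0.97 (SE 0.59, adjusted p 0.291), Psmb9, at −0.81, and Psmb8, at −0.76, did not pass.

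The balance of immunoproteasome and constitutive subunits was taken as the ratio of TPM values in each sample, in which the scale of the library cancels. In all, 12 ratios were compared with 2-sided exact permutation tests, which cannot go below p = 0.0357 with 6 against 2 samples or p = 0.1 with 3 against 3. In the pancreas the Psmb8 to Psmb5 ratio had a mean log2 value of −0.37 ± 0.53 (SD, n = 6) in A3B mice against −1.91 ± 1.97 (n = 2) in controls, a difference of 1.54 (exact p = 0.107) that was 0.15 without control 45 and 2.94 without control 168. The Psmb9 to Psmb6 ratio differed by 0.95 (exact p = 0.25), and its direction turned on the control, with −0.52 without control 45 and 2.42 without control 168. The Psmb10 to Psmb7 ratio ran from 1.24 to 2.18 in A3B pancreases and was 45.7 and 16.6 in controls 45 and 168, a log2 difference of −4.00 (exact p = 0.0357, the smallest possible). With coding transcripts alone the difference turned to 1.39 (exact p = 0.0714).

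In the livers of set 2 the 3 ratios differed by 0.11, 0.07 and 0.98 on the log2 scale (exact p = 0.893, 0.929 and 0.214). In the livers of set 1 they differed by 0.03, −0.12 and 0.01 (exact p = 1.0 for each). In lung the Psmb10 to Psmb7 ratio was 0.281, 0.42 and 0.469 in A3B lungs 69, 70 and 74 and 0.648, 0.763 and 0.859 in controls 87, 88 and 91, a log2 difference of −0.98 (exact p = 0.1, the smallest possible). The Psmb9 to Psmb6 ratio differed by −0.52 (exact p = 0.2), and the Psmb8 to Psmb5 ratio differed by −0.01 (exact p = 1.0). After Benjamini-Hochberg adjustment over the 12 comparisons no ratio passed, and the smallest adjusted p was 0.429. Given the smallest possible p-values above, no ratio could have passed this adjustment, whatever its size.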

How the data were processed

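Total RNA from mouse liver, pancreas and lung was sequenced as paired-end stranded libraries. For set 2 the authors ran kallisto on mm10 transcripts and deposited estimated counts and TPM per transcript, unscaled between samples. For set 1 the authors deposited TPM per gene, computed from deduplicated alignments with GenomicAlignments and GenomicFeatures. No pooled column was used, and no 2 samples held identical values.

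GENCODE M21 gave a gene symbol for 116640 of 119414 transcripts, and the others held 0.23% to 1.47% of counts. Estimated counts were summed per gene, rounded, filtered with filterByExpr, TMM-scaled and tested with the robust quasi-likelihood test of edgeR 4.0.16 (R 4.3.3). Set 1 was tested on log2(TPM + 1) with a pseudocount of 1, for genes whose mean reached 1 TPM, with limma 3.58.1 (trend, robust). Fold changes on that scale understate those of low genes. Both methods were tested on simulated data. P-values were adjusted by Benjamini-Hochberg over all genes tested, with a threshold of 0.05. Interaction terms compared tissues, and ratios of TPM were compared with exact permutation tests. "Called" means past the threshold, and a standard error is the fold change divided by the test's t or the root of its F. Promoter sequences came from RefSeq (GRCm38.p6). Ranges of 2 or 6 samples describe these mice only, and every sample of a tissue came from its own mouse.

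All 10 members and their constitutive partners are named in each comparison, with up to 3 genes of smallest p from each pathway list and the defining gene of each cell list discussed. Other called genes of the cell lists were named after their values were seen. Members and lists were chosen with earlier results of these data known. Same-numbered liver and pancreas samples were taken as the same mouse from the numbers in their titles. Their deviations from the group means correlated across genes at r = 0.257 for mouse 44, 0.384 for 137, −0.004 for 49, 0.294 for 125 and 0.207 for 153. Controls 45 and 168 share 1 value, 0.025, because the deviations of 2 samples from their mean mirror each other. Alternatives were total-count scaling, DESeq2 1.42.0, limma on TPM, no filter, coding transcripts only, a term for Y-chromosome expression, another pseudocount, median-centred samples, the replicate block and leaving out samples. For the interaction and the ratios, coding transcripts only and the 7 mice without a block were chosen after seeing the data. Python 3.11.15 with pandas 2.3.3, numpy 2.4.6 and matplotlib 3.10.9 was used for tables and plots.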

Additional observations from a re-analysis of the deposited data

Results flagged for a closer look

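A3B pancreas 49 stood apart from the other 5 A3B pancreases for 3 genes. It had the highest Tap1 (104.0 TPM), Psmb9 (99.4 TPM) and Nlrc5 (29.5 TPM), each with a gap to the next sample above Dixon's critical value. These were 3 of 26 gene and group combinations examined, and chance alone marks about 1 in 20 of them. Without this pancreas the same 7 members were called higher, where 15.9% of all genes were.

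For 6 members, and for 11.9% of all genes (7.99% with the mouse as a block), the A3B effect differed between pancreas and liver by the interaction test of set 2. The difference on the log2 scale was 3.13 for B2m, 2.69 for H2-K1, 2.53 for H2-D1, 2.74 for Tapbp, 2.20 for Tap2 and −3.62 for the Psmb10 sum. The last turned to 1.71 with coding transcripts alone. With the mouse as a block 4 of the 6 passed, without H2-K1 (adjusted p 0.0615) and H2-D1 (0.083), and without control pancreas 45 only Tapbp and Psmb10 did.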

How the results depend on the processing

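Of 273 alternative values of counts and ratios, 232 kept their direction and side of the threshold, as did 849 of 950 for single members. With coding transcripts only, no member was lower in A3B pancreas (0, against 14.9% of all genes). Psmb10 turned to 1.63 there and to 1.71 in pancreas against liver, and Nlrc5 in set 2 liver to −0.06. DESeq2 gave −0.06 for H2-D1 and −0.03 for Nlrc5 in that liver, and Tap2 was 0.21 with total-count scaling and 0.10 with limma on TPM. Total-count scaling moved the median of all genes to 2.29 in pancreas and 0.68 in liver, with 9 members then higher and 1 lower in pancreas, among 13473 genes called higher and 210 lower in all. Limma on TPM also called 9 members higher and 1 lower there, among 83.9% of 13590 genes higher and 1.12% lower, with a median of 1.75. No member was higher in set 1 liver without the filter or with median-centred samples (0 in both), where 0.203% and 2.36% of all genes were. Median-centring gave −0.30 for H2-D1, −0.26 for Psmb8, −0.30 for Tap2 and −0.39 for Tapbp there, and −0.21 for H2-D1, −0.06 for Psmb10, −0.18 for Psmb9 and −0.30 for Tap2 over both sets. With the replicate block 1 member differed between lung and liver, where 19.3% of all genes did, and H2-D1 turned to 0.05. Ratios in set 2 liver turned to −0.14 (Psmb8) and −0.43 (Psmb9) with the most abundant transcript and to −0.23 (Psmb8) with coding transcripts, and Psmb10 to Psmb7 in pancreas to 1.39. Apart from fewer samples or transcripts entering, the cause was not tested.

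Leaving out 1 sample at a time, log2 fold changes ranged in set 2 liver from −0.21 to 0.11 for H2-D1, −0.21 to 0.18 for Nlrc5, −0.09 to 0.27 for Psmb9 and −0.04 to 0.42 for Psmb10. In set 1 liver they ranged from −0.01 to 0.31 for H2-D1, −0.46 to 0.40 for Psmb10, −0.30 to 0.69 for Psmb8, −0.49 to 0.47 for Psmb9, −0.18 to 0.38 for Tap2 and −0.32 to 0.35 for Tapbp. They ranged from −0.16 to 0.20 for Nlrc5 and −0.16 to 0.30 for Tap1 in lung, from −0.02 to 0.25 for Tap2 and −0.27 to 0.08 for Tapbp over both sets of livers, and between lung and liver from −0.19 to 0.13 for H2-D1, −0.55 to 0.01 for Tap2 and −0.63 to 0.05 for Tapbp. Ratios ranged in set 1 liver from −0.56 to 0.69 (Psmb8), −0.48 to 0.55 (Psmb9) and −0.49 to 0.51 (Psmb10), in set 2 liver from −0.18 to 0.28, −0.21 to 0.36 and 0.54 to 1.41, in pancreas from 0.15 to 2.94, −0.52 to 2.42 and −4.73 to −3.27, and in lung from −0.19 to 0.16, −0.69 to −0.34 and −1.13 to −0.76. Members called higher ranged from 3 to 9 in pancreas, 0 to 1 in set 1 liver, 0 to 1 in lung and 1 to 2 over both sets of livers, those lower in lung from 1 to 3, and those that differed from 2 to 9 between pancreas and liver and 0 to 1 between lung and liver. Calls over all genes moved in these fits too, as given with the comparisons above. A lone control left in an arm was taken to vary like the other samples.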
